A study of Homo sapiens with 4 samples.

Results

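The clade B serpins are intracellular relatives of the serine protease inhibitors of blood plasma, and 10 of them that are made in squamous epithelium are described here across control and KPNA4 knockdown cells. They were chosen by name, with no measured value in the rule but with earlier results of these data known: SERPINB1, SERPINB2, SERPINB3, SERPINB4, SERPINB5, SERPINB6, SERPINB7, SERPINB8, SERPINB9 and SERPINB13. Together they had 11 probes of 34127 on the array, 2 for SERPINB6 and 1 for each of the others. Of the 10 genes, 9 were among the 19550 that could be tested, and SERPINB9 was not well above background on any array.

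Ca9-22 is an established line from a human gingival squamous cell carcinoma. The control group was 2 cultures of negative control cells, and the knockdown group was 2 cultures in which KPNA4, an importin alpha that carries proteins with a nuclear localization signal into the nucleus, was silenced. All 4 cultures were grown in DMEM with 10% fetal bovine serum and, according to the labels, were harvested 3 days after transfection. The labels call the reagent siRNA, whereas the study's text describes short hairpin RNAs in these lines, and the silencing sequence is not given in the labels. Total RNA of each culture was labeled with Cy3 and hybridized to 1 Agilent whole human genome array. The design text calls the cultures biological replicates, and the p-values measure the spread between these arrays of 1 line and 1 target gene.

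A serpin presents an exposed loop as bait to its target protease, is cut there, and then folds around the enzyme so that both are trapped and inactive. Clade B members lack a classical secretion signal and act mostly inside cells, where they shield the cell from its own lysosomal proteases or from proteases delivered by leukocytes. In stratified squamous epithelium several of them are made in the upper, differentiating layers, and SERPINB3 and SERPINB4 were first described as squamous cell carcinoma antigens. The human genes lie in a pair of clusters, one at 18q21 and the other at 6p25.

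The promoters of these genes are shown first as a description, and a link to the levels was not tested. In the 18q21 cluster 4 members rose after knockdown and the other 3 members did not pass the test. The 4 that rose were 44.4% of the 9 members tested, beside 20.3% of all genes called higher. The sequences are those of RefSeq on the assembly GRCh38.p14, 250 bases up to the transcription start and written 5′ to 3′ on the gene's own strand. All 10 members had an entry, 15 windows in all. Each window was searched on both strands for the letters TGANTCA, which read the same on either strand. They are a loose form of the binding motif of AP-1 factors, with any base in the middle. The other search was for GGG and CC with any 5 bases between them, a loose form of the NF-kB motif. The AP-1 letters were in 6 of the 15 windows, from 5 members, and in 6.57% of the 35116 windows of the same length in the table. SERPINB6 and SERPINB7 had several windows each, those of SERPINB6 partly overlapping, and a share over genes was not counted. The next 5 lines give a window with AP-1 letters for each of the 4 members that rose and for SERPINB8, the remaining member with an AP-1 match. The AP-1 letters are in capitals.
SERPINB13, chr18:63587093-63587342, plus strand: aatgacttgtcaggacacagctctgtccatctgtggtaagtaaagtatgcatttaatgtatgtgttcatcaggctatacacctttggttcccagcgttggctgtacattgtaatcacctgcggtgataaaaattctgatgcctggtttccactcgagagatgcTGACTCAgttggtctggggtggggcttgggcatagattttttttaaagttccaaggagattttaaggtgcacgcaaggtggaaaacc
SERPINB5, chr18:63476708-63476957, plus strand: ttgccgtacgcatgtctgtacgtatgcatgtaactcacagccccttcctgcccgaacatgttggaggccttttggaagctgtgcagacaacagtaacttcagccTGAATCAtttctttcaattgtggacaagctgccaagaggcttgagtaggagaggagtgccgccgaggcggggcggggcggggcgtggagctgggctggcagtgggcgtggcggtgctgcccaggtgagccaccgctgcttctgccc
SERPINB2, chr18:63887455-63887704, plus strand: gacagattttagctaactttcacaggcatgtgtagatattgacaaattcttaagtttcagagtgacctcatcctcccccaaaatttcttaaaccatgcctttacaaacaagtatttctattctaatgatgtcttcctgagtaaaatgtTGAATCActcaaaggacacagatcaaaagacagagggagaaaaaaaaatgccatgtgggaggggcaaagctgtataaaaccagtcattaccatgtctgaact
SERPINB7, chr18:63775168-63775417, plus strand: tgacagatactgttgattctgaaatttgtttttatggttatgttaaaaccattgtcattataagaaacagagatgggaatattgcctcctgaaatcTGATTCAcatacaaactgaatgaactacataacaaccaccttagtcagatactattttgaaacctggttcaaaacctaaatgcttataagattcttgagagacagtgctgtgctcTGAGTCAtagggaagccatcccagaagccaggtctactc
SERPINB8, chr18:63969831-63970080, plus strand: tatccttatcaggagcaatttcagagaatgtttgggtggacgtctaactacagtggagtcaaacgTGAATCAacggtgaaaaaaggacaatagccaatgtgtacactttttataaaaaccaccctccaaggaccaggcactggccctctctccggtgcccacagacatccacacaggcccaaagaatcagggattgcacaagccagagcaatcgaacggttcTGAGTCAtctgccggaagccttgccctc

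The AP-1 letters began 87 bases before the start of SERPINB13, 146 bases before that of SERPINB5 and 102 bases before that of SERPINB2. They read TGACTCA in SERPINB13 and TGAATCA in SERPINB5 and SERPINB2. The SERPINB7 window shown held 2 matches, 154 and 39 bases before the start, and a second SERPINB7 window also held 2, at 206 and 45 bases. The remaining SERPINB7 window held none. SERPINB8 had matches at 185 and 28 bases. No AP-1 letters were in the windows of SERPINB1, SERPINB3, SERPINB4, SERPINB6 or SERPINB9. The NF-kB letters were in 8 windows, from SERPINB1, SERPINB5, SERPINB6, SERPINB7 and SERPINB9, but 54.4% of all windows held them. The window of SERPINB5 was the only one of the 15 with both motifs. These matches are letters in a window and were not tested as binding sites.

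SERPINB3 and SERPINB4 are shown as a pair because they are near-identical copies. Their windows shared 247 of 250 bases (98.8%), whereas the other 44 pairs of members shared 40.2% to 51.4% in gapped alignments. Each gene entered with 1 window, the one at the lowest coordinate, which for SERPINB7 is not the one shown. Genes outside the members were not aligned, so this range has no baseline. The 3 substitutions were G126A, G201A and C228T, counted from 1 at the 5′ end with the SERPINB3 base first, and the differing bases are in capitals.
SERPINB3, chr18:63661894-63662143, minus strand: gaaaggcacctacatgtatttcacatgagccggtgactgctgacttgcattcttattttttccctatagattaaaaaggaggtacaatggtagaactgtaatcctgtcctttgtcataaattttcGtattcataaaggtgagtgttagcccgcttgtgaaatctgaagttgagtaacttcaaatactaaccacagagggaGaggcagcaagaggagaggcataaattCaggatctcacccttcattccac
SERPINB4, chr18:63644257-63644506, minus strand: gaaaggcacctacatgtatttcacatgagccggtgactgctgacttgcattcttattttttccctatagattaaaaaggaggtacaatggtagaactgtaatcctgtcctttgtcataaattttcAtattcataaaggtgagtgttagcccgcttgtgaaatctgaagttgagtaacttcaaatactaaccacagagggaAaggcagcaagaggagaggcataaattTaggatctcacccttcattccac

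The values below are the log2 processed signal of a probe minus the log2 of the 75th percentile of its array, so that 0 is the level of the 75th percentile, and they were not compared between probes of different genes. KPNA4, the targeted gene, was at 4.02 and 4.03 in the control cells and at 2.36 and 2.05 in the knockdown cells. It fell by 1.82 on the log2 scale (SE 0.12, limma adjusted p = 0.00183), which was 3.53-fold lower, and the groups did not overlap. The knockdown arrays were brighter before scaling, with 75th percentiles of 1938 and 2096 against 1466 and 1381 for the control cultures. The 4 arrays lay at different positions of 1 slide, and position and group cannot be told apart. Across all genes the 2 arrays of a group correlated at 0.998 and arrays of different groups at 0.979.

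SERPINB13, SERPINB5, SERPINB2 and SERPINB7 were higher after KPNA4 knockdown, 6.77-fold, 2.33-fold, 1.67-fold and 1.48-fold in that order, no member was lower, and 5 members did not pass the test. A gene was called where limma's two-sided test, adjusted by the Benjamini-Hochberg method over all 19550 genes, was under 0.05. At this threshold 49.8% of all genes were called, 20.3% as higher and 29.5% as lower, against 44.4% of the 9 tested members, all as higher. The median log2 difference of the 9 members was -0.02, with a range from -0.27 to 2.76, and that of all genes was -0.10. Both knockdown arrays were above both control arrays for 4 members and below them for 3, compared with 31.7% and 48.1% of all genes, and the arrays overlapped for 2. At least 2-fold higher and called were 2 members, SERPINB13 and SERPINB5, and 5.27% of all genes, and no member and 3.23% of all genes were called and at least 2-fold lower. In bulk RNA, more cells that express a gene and more RNA per cell cannot be told apart.

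**Figure D1:**
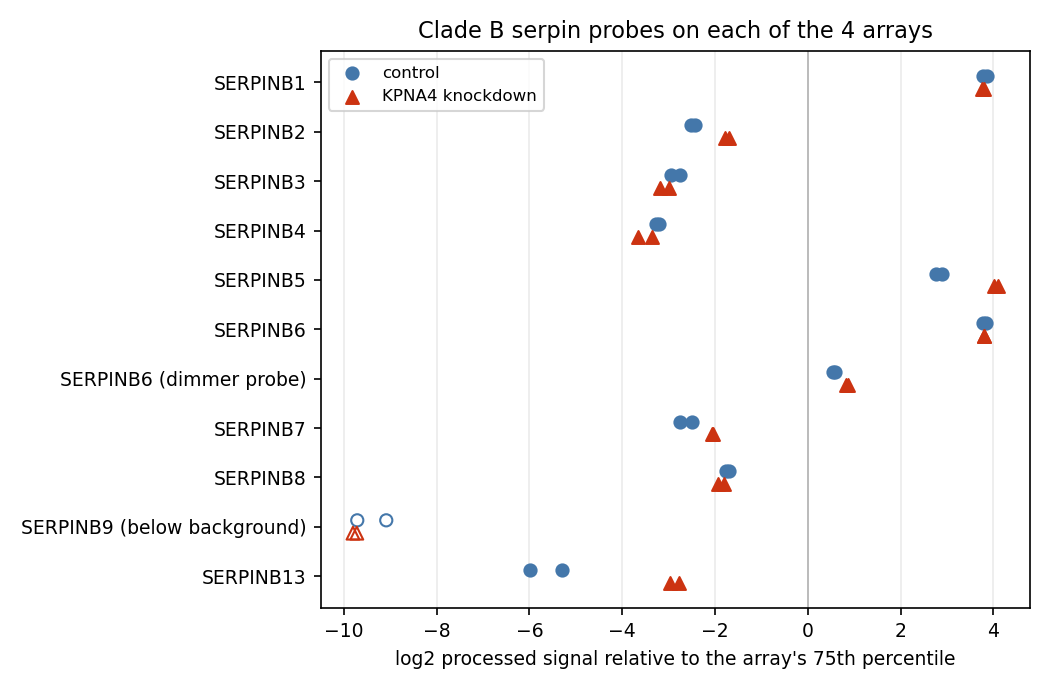
Log2 processed signal relative to the 75th percentile of the array (horizontal axis) for each clade B serpin probe (rows), with 1 circle per control array and 1 triangle per KPNA4 knockdown array, and open symbols for SERPINB9, which was not well above background. SERPINB13, SERPINB5, SERPINB2, SERPINB7 and the dimmer SERPINB6 probe have both triangles to the right of both circles, by 2.32 for SERPINB13.

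SERPINB13, also known as headpin, inhibits the lysosomal cysteine proteases cathepsin L and cathepsin K and is made in the upper layers of squamous epithelium. Its log2 level was -5.98 and -5.29 in the control cells and -2.78 and -2.98 in the knockdown cells. The lower knockdown array was 2.32 above the higher control array, the widest gap of any member that rose. The log2 difference was 2.76 (SE 0.25, 95% interval 2.06 to 3.46, limma adjusted p = 0.00363), a fold of 6.77 with an interval from 4.16 to 11.01. It was greater than the difference of 99.2% of the genes tested. The SERPINB13 probe was dim in the control cells, with processed signals of 23.2 and 35.2 in control and 282 and 266 in knockdown, though it was well above background on all 4 arrays. The control arrays were further apart (SD 0.48, n = 2) than the knockdown arrays (SD 0.14, n = 2).

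SERPINB5, or maspin, has the serpin fold but does not inhibit proteases, and is known as a product of normal epithelium that restrains invasion. It was at 2.90 and 2.76 in the control cells and at 4.01 and 4.09 in the knockdown cells. The groups lay 1.11 apart, many times the distance between the arrays of either group. Its log2 difference was 1.22 (SE 0.08, 95% interval 1.00 to 1.43, limma adjusted p = 0.00174), which is 2.33-fold (2.01 to 2.70), and it exceeded that of 95.9% of the genes tested. The processed signal went from 10910 and 9372 to 31150 and 35710, and no spot was saturated.

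SERPINB2, the plasminogen activator inhibitor of placenta, monocytes and stressed keratinocytes, blocks urokinase and tissue plasminogen activator. It was at -2.44 and -2.52 in the control cells and at -1.79 and -1.69 in the knockdown cells. Both knockdown arrays were higher than both control arrays, by at least 0.65. The log2 difference was 0.74 (SE 0.07, 95% interval 0.55 to 0.94, limma adjusted p = 0.00390), or 1.67-fold (1.46 to 1.91).

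SERPINB7, or megsin, is expressed in the upper epidermis, and its loss causes Nagashima-type palmoplantar keratosis. It was at -2.49 and -2.76 in the control cells and at -2.07 and -2.05 in the knockdown cells. The knockdown arrays were almost equal, the control arrays were further apart, and the groups did not overlap. The log2 difference was 0.57 (SE 0.11, 95% interval 0.27 to 0.86, limma adjusted p = 0.0180), or 1.48-fold (1.21 to 1.82). This was the weakest of the 4 calls. Without knockdown replicate 1 the difference was 0.57 with an adjusted p of 0.0684, and without knockdown replicate 2 it was 0.56 with an adjusted p of 0.0759, so that the call was lost in either case. Over the alternatives tried, its adjusted p ranged from 0.000295 to 0.648.

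SERPINB3 and SERPINB4, which inhibit lysosomal cysteine proteases and chymotrypsin-like serine proteases respectively, were slightly lower in the knockdown cells but did not pass the test. SERPINB3 was at -2.75 and -2.94 in control and at -3.18 and -2.98 in knockdown, and the log2 difference was -0.23 (SE 0.11, 95% interval -0.54 to 0.07, limma adjusted p = 0.152). SERPINB4 was at -3.21 and -3.28 in control and at -3.67 and -3.36 in knockdown, a difference of -0.27 (SE 0.12, 95% interval -0.61 to 0.07, limma adjusted p = 0.139). In both genes the groups were separated by less than 0.1, within the distance between the knockdown arrays. At this scaling the intervals leave out a rise of the size seen in SERPINB2 and SERPINB7. With another background correction (normexp) the differences of SERPINB3 and SERPINB4 were 0.60 (SE 0.77) and 0.62 (SE 0.79). Because the genes are near-identical and probe sequences were not used here, the signal of the pair of probes may come from either gene or both.

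SERPINB8, an inhibitor of furin-like proteases, lies at the far end of the 18q21 cluster. It was at -1.71 and -1.77 in the control cells and at -1.94 and -1.81 in the knockdown cells, with a gap of 0.05 between the groups. Its log2 difference was -0.14 (SE 0.07, 95% interval -0.34 to 0.06, limma adjusted p = 0.182). Its window held the AP-1 letters, like a window of each of the 4 members that rose, and its own level did not pass the test. A link between the letters and the levels was not tested.

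The 3 members at 6p25 protect cells against the proteases of leukocytes. SERPINB1, which inhibits neutrophil elastase and cathepsin G, was at 3.87 and 3.77 in the control cells and at 3.76 and 3.80 in the knockdown cells, and the groups overlapped. The log2 difference was -0.05 (SE 0.07, 95% interval -0.23 to 0.14, limma adjusted p = 0.598). SERPINB9, the inhibitor of granzyme B, gave processed signals of 1.75 and 2.54 in control and of 2.17 and 2.48 in knockdown, and no fold is given because it was not well above background on any of the 4 arrays.

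SERPINB6, an inhibitor of cathepsin G and thrombin whose loss causes deafness, was the only member with more than 1 probe, and its probes differed. The brighter probe was at 3.85 and 3.79 in control and at 3.80 and 3.79 in knockdown, a log2 difference of -0.02 (SE 0.06, 95% interval -0.19 to 0.14, limma adjusted p = 0.771). The dimmer probe was at 0.58 and 0.55 in control and at 0.83 and 0.87 in knockdown, a difference of 0.28 (SE 0.06, 95% interval 0.12 to 0.45). In a fit over all 24198 probes, in which 48.4% were called, 20% higher and 28.3% lower, the dimmer probe passed the limma test with an adjusted p of 0.0229. Within each array the dimmer minus the brighter probe was -3.27 and -3.24 in control and -2.97 and -2.92 in knockdown. That distance narrowed by 0.31 without overlap, but the exact two-sided permutation p was 0.333, the smallest that 2 arrays against 2 allow. The array assigns the probes to different SERPINB6 transcripts, and which transcripts each probe detects was not tested.

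**Figure D2:**
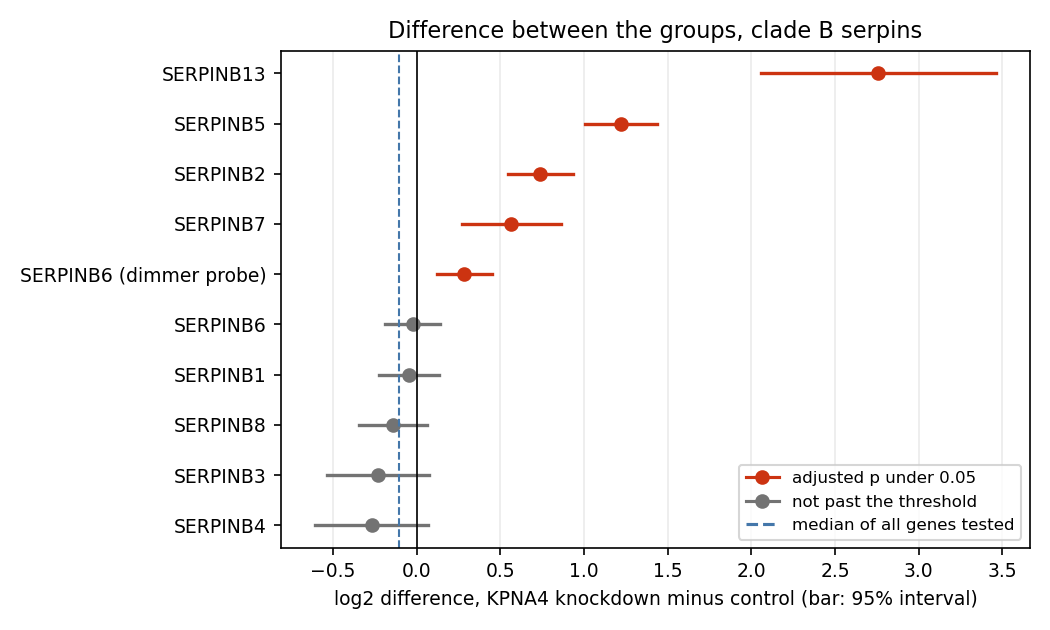
Log2 difference between knockdown and control (horizontal axis) with its 95% interval for each clade B serpin probe tested (rows), red where the adjusted p was under 0.05, with a dashed line at the median of all genes, -0.10. The intervals of SERPINB13, SERPINB5, SERPINB2, SERPINB7 and the dimmer SERPINB6 probe lie above 0, and those of SERPINB1, SERPINB3, SERPINB4, SERPINB8 and the brighter SERPINB6 probe include 0.

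The 5 members that did not pass the test had differences close to the center that the scaling sets, and their direction depended on it. Scaling to the 75th percentile put the median log2 difference of all genes at -0.10, and without any scaling that median was 0.40. Without scaling, SERPINB1, SERPINB3, SERPINB4, SERPINB6 and SERPINB8 were at 0.46, 0.27, 0.23, 0.48 and 0.36, and SERPINB1, SERPINB6 and SERPINB8 then passed the test as higher. Under quantile normalization SERPINB1 and SERPINB6 turned to 0.08 and 0.10 without passing it. The 4 members that rose were higher in direction under each scaling and background correction tried. They passed the test under each scaling, but none passed after normexp background correction of the median spot intensity, when no gene on the array did, KPNA4 included.

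**Figure D3:**
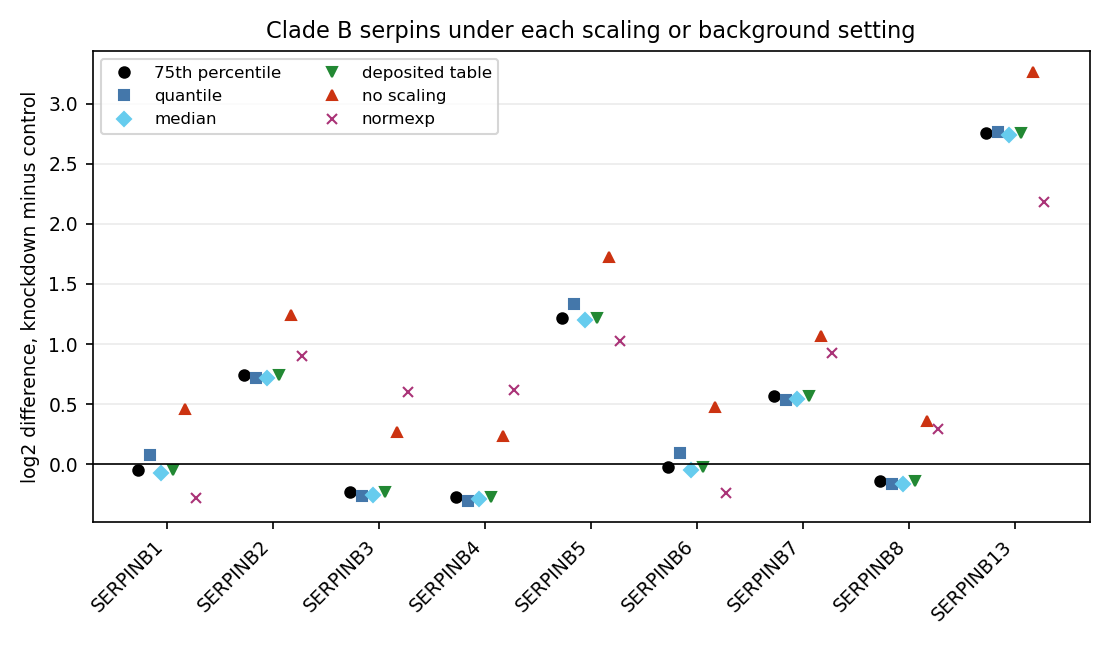
Log2 difference between knockdown and control (vertical axis) of each clade B serpin tested (horizontal axis), with 1 symbol for each of 6 settings of scaling or background correction. SERPINB13, SERPINB5, SERPINB2 and SERPINB7 are above 0 in each setting shown, whereas SERPINB3, SERPINB4 and SERPINB8 are above it only without scaling and after normexp, and SERPINB1 and SERPINB6 only without scaling and after quantile normalization.

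By position, the 7 members at 18q21 had a median log2 difference of 0.57, with 4 higher and 3 not called, and the 2 tested members at 6p25 had a median of -0.03, with neither called. The difference between the clusters was not tested. Along 18q21 the members that rose were not adjacent as a block. SERPINB5 and SERPINB13 came first, then SERPINB4 and SERPINB3, which did not pass the test, then SERPINB7 and SERPINB2, and last SERPINB8. The remaining clade B genes of the cluster, SERPINB10, SERPINB11 and SERPINB12, had probes that were not well above background on any array. HMSD, which lies between SERPINB2 and SERPINB8, was higher with a log2 difference of 0.63 (limma adjusted p = 0.00885).

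The 3 nearest protein-coding genes that could be tested on each side were read in the same way. Genes that could not be tested were passed over, and distances were not used. Before the 18q21 cluster, BCL2, an inhibitor of apoptosis, was higher by 0.73 (limma adjusted p = 0.00268) and VPS4B, an ATPase of endosomal sorting, by 0.43 (adjusted p = 0.0114), and KDSR was at -0.16 without a call. After it, TMX3 was higher by 0.47 (adjusted p = 0.00758) and CCDC102B by 0.51 (adjusted p = 0.0230), and DSEL was at 0.29 without a call. Thus 4 of these 6 tested genes around that cluster were higher, beside 20.3% of all genes. DSEL passed the test as higher without control replicate 1 (0.46, adjusted p = 0.0295) and with averaged probes (0.51, adjusted p = 0.00847), and was at 0.12 without control replicate 2. The calls of VPS4B and CCDC102B were lost without either knockdown array and that of TMX3 without knockdown replicate 2. At 6p25, MYLK4 was higher by 1.25 (adjusted p = 0.000926) and NQO2 and BPHL by 0.22 and 0.26 (adjusted p = 0.0380 and 0.0358), while GMDS, WRNIP1 and RIPK1 were at 0.14, 0.16 and -0.12 without a call. SERPINB9P1 was not well above background on any array. NQO2 lost its call without any 1 of the 4 arrays and under median scaling, and BPHL without control replicate 1 or either knockdown array. Without the filter on dim probes, CCDC102B, NQO2 and BPHL all lost their calls (adjusted p = 0.0580, 0.0757 and 0.0755). Without scaling, all of these neighbors at both clusters were higher, including DSEL, GMDS and WRNIP1 at 0.79, 0.64 and 0.66, and KDSR and RIPK1, which turned to 0.34 and 0.38.

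**Figure D4:**
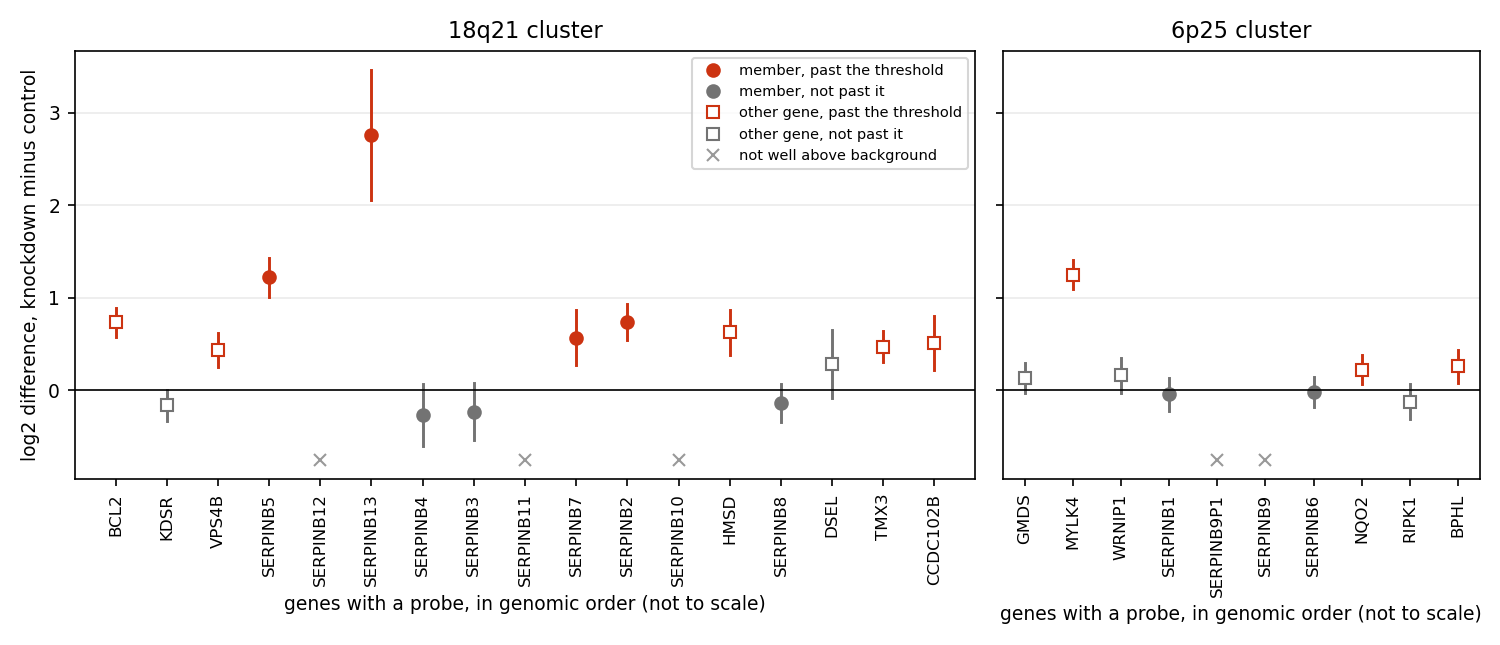
Log2 difference between knockdown and control (vertical axis) with its 95% interval for genes of the 18q21 and 6p25 clusters and the 3 nearest measured protein-coding genes on each side, in gene order and not to scale along the horizontal axis. Circles are the clade B serpins described, squares other genes, red those past the threshold, and crosses, whose height has no meaning, genes not well above background; SERPINB13 at 2.76 stands highest, and MYLK4 at 1.25 is the highest gene at 6p25.

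Of 20 serpins of other clades, most of them secreted, 11 could be tested, and 3 were higher and 2 lower, with a median log2 difference of -0.16. SERPINA1, alpha-1-antitrypsin and the plasma inhibitor of neutrophil elastase, was at -4.78 and -4.59 in control and at -2.91 and -2.88 in knockdown, higher by 1.79 (limma adjusted p = 0.00109). SERPINA6, the carrier of cortisol in plasma, was at -2.48 and -2.21 in control and at -3.38 and -3.50 in knockdown, a log2 difference of -1.09 (adjusted p = 0.00493). SERPINI1, or neuroserpin, was at -0.69 (adjusted p = 0.0137) and lost its call without knockdown replicate 1 (adjusted p = 0.0587) and without scaling, where it was at -0.19. Without knockdown replicate 1, 1 gene of the list was higher and 1 lower. Without scaling, 6 of this list were higher and 1 lower.

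Among 16 proteases that clade B serpins inhibit, 12 were tested, 6 were higher and 1 lower, and the median log2 difference was 0.29. When a gene had to be well above background on all 4 arrays, 11 were tested, 5 were higher and 2 lower. KLK5 and KLK8, kallikreins that cut the adhesions between cells in the outer epidermis, changed most. KLK5 was at -5.55 and -5.19 in control and at 2.41 and 2.44 in knockdown, higher by 7.80 (limma adjusted p = 0.000299). KLK8 was not well above background in either control culture and was at 0.30 and 0.13 in knockdown. That was at least 193-fold higher against the dimmest detected signal of each control array. KLK8 entered the test only through the knockdown arrays, so no p-value is given for it. CTSK, the cathepsin K that SERPINB13 inhibits, was at -1.74 and -1.58 in control and at -2.60 and -2.56 in knockdown. Its log2 difference was -0.92 (limma adjusted p = 0.00306). CTSL, the cathepsin L that SERPINB13 also inhibits, went the other way, higher by 0.32 (limma adjusted p = 0.0167). Without knockdown replicate 2 the list had 3 genes higher and 1 lower, and without scaling 11 higher and 1 lower.

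Of 15 other protease inhibitors of epithelium, 12 were tested, 5 were higher and 3 lower, and the median log2 difference was 0.30. SLPI, a secreted inhibitor of leukocyte elastase, was at -3.45 and -3.51 in control and at -0.15 and -0.17 in knockdown, higher by 3.32 (limma adjusted p = 0.000299). WFDC2 was higher by 2.50 (adjusted p = 0.000359). CST3, the cysteine protease inhibitor cystatin C, was higher by 0.91 (adjusted p = 0.00863). Without knockdown replicate 1, and likewise without knockdown replicate 2, 1 gene of the list was lower. Without scaling, 9 were higher and 0 lower. The shares called in the 3 lists were 45.5%, 58.3% and 66.7%, beside 49.8% of all genes, so that only differences in size and direction are described.

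**Figure D5:**
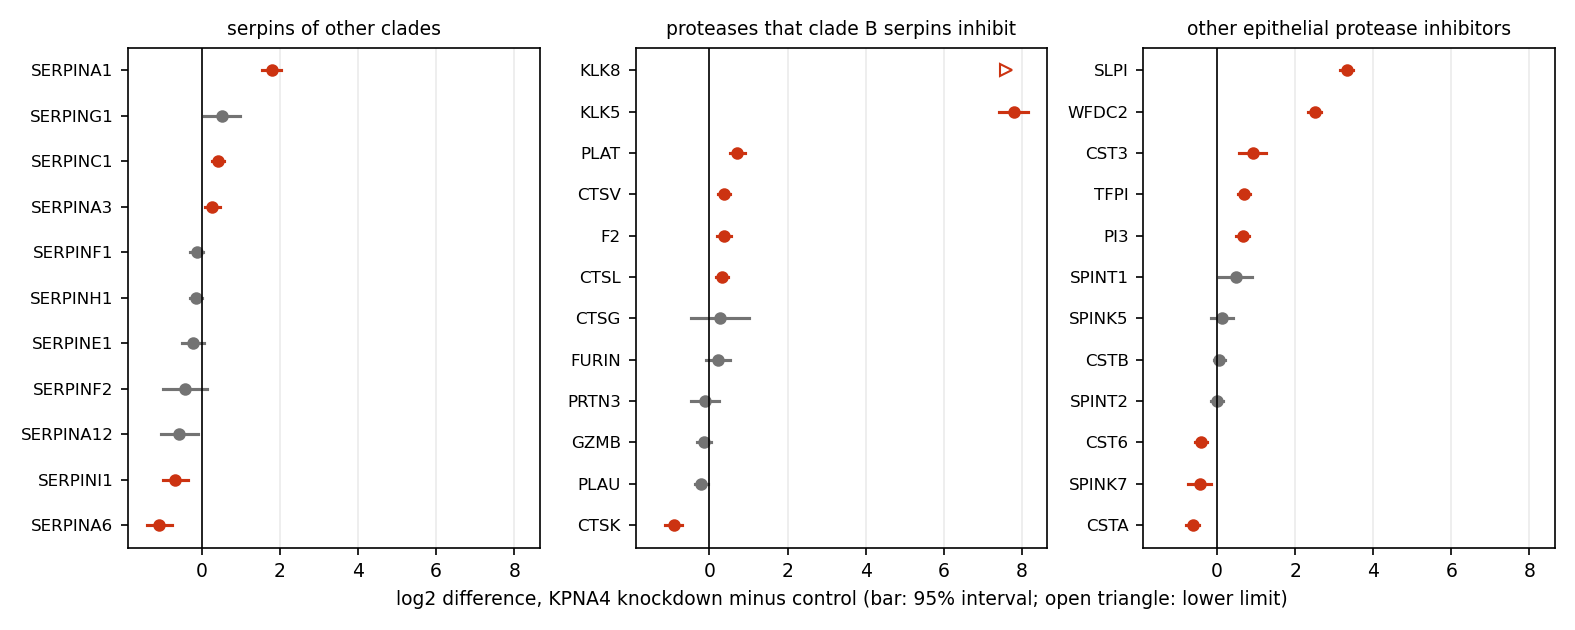
Log2 difference between knockdown and control (horizontal axis) with its 95% interval for each gene tested in the 3 lists, 1 panel a list, red where the adjusted p was under 0.05 and the open triangle a lower limit. KLK8 and KLK5 stand far to the right of the other proteases, SLPI and WFDC2 lead the other inhibitors at 3.32 and 2.50, and SERPINA1 leads the serpins of other clades at 1.79.

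The squamous origin of the cells was checked with markers. All 8 squamous markers were well above background on all 4 arrays, and 5 of them were higher and 1 lower after knockdown. Their log2 differences ranged from -1.15 to 6.94, with a median of 1.08. The summed level of the squamous markers, each gene's signal over the 75th percentile, was 67.5 to 68.5 in control and 58.1 to 58.5 in knockdown. That fall was carried by the bright probe of ITGB4, the marker with the difference of -1.15. COL3A1 and PDGFRA of fibroblasts, PECAM1 and KDR of endothelium and TYR of melanocytes were not well above background on any array. Above background on all 4 arrays were 3 of 7 fibroblast markers (summed level 0.145 to 0.150 in control and 0.332 to 0.348 in knockdown), 4 of 6 leukocyte markers (6.08 to 6.28 and 6.93 to 7.37), 2 of 4 endothelial markers (0.0916 to 0.0983 and 0.0658 to 0.0694) and 3 of 4 melanocyte markers (0.160 to 0.175 and 0.173 to 0.180). Of the 5 leukocyte markers tested, 1 was higher and 3 lower, so the rise of their sum was that of 1 gene. The part of these markers in the differences of the serpins was not tested.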

How the data were processed

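RNA of 2 control and 2 KPNA4 knockdown cultures, grouped by their labels, was measured on 1 array each. The authors deposited the scanner output of Agilent Feature Extraction 11.0.1.1, with a processed signal intensity that is subtracted for background and not yet scaled across arrays. The authors' second file, a deposited table of 24209 probes, holds that signal as a ratio to the 75th percentile of its array (within 1% for 99.8% to 99.9% of probes).

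Here, control and outlier-flagged spots (333 to 355 flagged per array) were removed, replicate spots were averaged, and log2 signals were expressed relative to the 75th percentile. Per array, 70.2% to 71.0% of probes were well above background. Each gene was tested by its brightest probe among those detected on both arrays of the control or of the knockdown group. The test was limma 3.58.1 (R 4.3.3), two-sided, with p-values adjusted by the Benjamini-Hochberg method and called under 0.05, and it was checked on simulated data. A gene not detected in a whole group was given a lower limit of its fold. The number of arrays limits the precision.

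Names, gene order and promoters came from RefSeq tables of GRCh38.p14, which named 25771 of 34127 probes. The array grid refers to hg19, and its coordinates were not used. Named are all members, KPNA4, the clade B and neighboring genes of both clusters, the 3 largest called changes of each list, and CTSL. Members and lists were chosen with earlier results of these data known. Alternatives were quantile, median and no scaling, normexp on the median and local background intensity (offset 50), the deposited table, other filters, averaged probes, limma with trend and robust settings, a replicate block, omission of each array, and a threshold of 0.01. A planned comparison of protein sequences was not run. A single cell type marker is not reported by name here.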

Additional observations from a re-analysis of the deposited data

How the results depend on the processing

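SERPINB13, SERPINB5, SERPINB2 and SERPINB7 were the same 4 members called higher under quantile normalization, median scaling, the deposited table, both other filters, averaged probes, trended and robust limma settings and the replicate block, and no member was called lower in any setting. Their log2 differences ranged over all alternatives from 2.18 to 3.26, 1.02 to 1.72, 0.69 to 1.24 and 0.43 to 1.07. Without scaling between arrays, 7 members, 11257 genes higher and 1048 lower passed the test, and SERPINB1 (0.46), SERPINB3 (0.27), SERPINB4 (0.23), SERPINB6 (0.48), SERPINB8 (0.36), KDSR (0.34) and RIPK1 (0.38) turned to higher. Quantile normalization turned SERPINB1 (0.075) and SERPINB6 (0.10), and the mean over probes turned SERPINB6 (0.13) and KDSR (0.12). After normexp correction, 0 members were higher, and 0 genes were higher and 0 lower by limma, with 1149 genes and 2 members higher at an unadjusted p under 0.05. KPNA4 was then at -1.96 (adjusted p = 0.648), and SERPINB3 (0.60), SERPINB4 (0.62), SERPINB8 (0.29), SERPINA6 (0.034) and SERPINI1 (0.95) turned to higher. The cause was not tested. With each array left out in turn, 3 to 4 members were higher and 0 lower, 2150 to 3596 genes were higher and 2522 to 4746 lower, KPNA4 ranged from -1.97 to -1.67, SERPINB1 from -0.093 to 0.0030 and SERPINB6 from -0.054 to 0.0090. A lone array was then assumed to vary like the other group. At an adjusted p under 0.01, 3 members were higher, without SERPINB7, and 2130 genes were higher and 2339 lower. With the replicate number as a block, 4 members were higher, 3262 genes were higher and 4639 lower, SERPINB7 had an adjusted p of 0.0294, and NQO2 and BPHL lost their calls, as they and CCDC102B did without the filter on dim probes. The deviations of same-numbered arrays correlated at -0.03, a value that cannot show whether the cultures were handled in pairs. For dim probes such as SERPINB13 in control and SERPINB9, signal over background limits what can be measured.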
